A study of Mus musculus with 12 samples.

Results

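Enzymes that build and burn fatty acids were examined in T cells taken from mouse pancreatic tumors. They were the genes of the nCounter Mouse Metabolic Pathways panel whose symbols begin with the family names of these enzymes, and 15 of the 748 endogenous genes of the panel met that rule. Fatty acid synthesis was represented by Acaca, Acacb, Fasn and Scd1, and oxidation in mitochondria by Cpt1a, Acadl, Echs1, Hadh and Acaa2. Ehhadh acts in peroxisomes, Acat1 and Acat2 are acetyl-CoA thiolases, and Acsf3 and Acot12 activate or hydrolyze short acyl-CoA molecules.

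The T cells were isolated from tumors of the pancreatic ductal adenocarcinoma line KPC-Luc, grown under the skin of female C57BL/6 mice. Each mouse received 10 µg of peptide subcutaneously every day and 200 µg of antibody intraperitoneally every 3 days, for 10 days. The control group (Scram+IgG) received scrambled peptide and isotype IgG. ANT008+IgG mice received ANT008, a peptide antagonist of the receptors of vasoactive intestinal peptide, with isotype IgG, and Scram+aPD-1 mice received scrambled peptide with anti-PD-1. ANT008+aPD-1 mice received both active agents. All 4 groups carried the same tumor and held 3 mice, and each mouse gave 1 of the 12 lanes. T cells were selected with CD90.2 beads to a stated purity of 80 to 85%, so that other cells of the tumor remained in the preparation.

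Fatty acid synthesis starts with acetyl-CoA carboxylase, which makes malonyl-CoA, and fatty acid synthase extends the chain from it. Malonyl-CoA also blocks carnitine palmitoyltransferase, the gate through which long-chain fatty acids enter mitochondria to be oxidized, so that a cell tends to run either route at the expense of the other. Proliferating effector T cells are known for fatty acid synthesis, while memory and regulatory T cells, and T cells receiving PD-1 signals in culture, are known for fatty acid oxidation.

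The panel reads each gene at a single stretch of its transcript, with a pair of probes that bind side by side. The targets of 3 genes on which the comparisons below turned are given, as listed in the vendor's definition of the panel, 5′ to 3′ in the sense of the mRNA. Fasn is shown for the synthesis arm, Acadl as the enzyme that varied least between mice, and Acat1 as an enzyme with an unadjusted p below 0.05.
Fasn, bases 5812 to 5911 of NM_007988.3: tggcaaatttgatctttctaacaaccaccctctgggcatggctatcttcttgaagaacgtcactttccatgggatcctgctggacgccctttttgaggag
Acadl, bases 640 to 739 of NM_007381.3: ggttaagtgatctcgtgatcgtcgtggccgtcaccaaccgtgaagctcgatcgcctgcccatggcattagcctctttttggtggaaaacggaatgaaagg
Acat1, bases 776 to 875 of NM_144784.3: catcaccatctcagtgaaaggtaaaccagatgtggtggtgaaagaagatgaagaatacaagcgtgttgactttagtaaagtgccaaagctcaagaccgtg
Each target had a length of 100 bases, and their GC content was 48% for Fasn, 53% for Acadl and 43% for Acat1. Since probes differ in how well they capture a transcript, counts were compared between mice for the same gene and not between genes.

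The lanes differed widely in depth. Their endogenous totals ran from 5776 to 1486646 counts, and ANT008+aPD-1 mice 1 and 3 had the lowest totals, 5776 and 24813. The background of a lane, 2 SD above the mean of the 8 negative control probes in it, lay between 9.94 and 28.2 counts. Raw counts were divided by the size of the lane, taken from 3 housekeeping genes that stood above background in all 12 lanes (Dnajc14, Oaz1 and Ubb), to give scaled counts. On the scaled count axis the background itself was 358 in ANT008+aPD-1 mouse 1 and 149 in mouse 3, against 13.8 in mouse 2 and 3.42 to 46.3 in the lanes of the other groups. The table marks Scram+IgG mouse 1 and ANT008+IgG mouse 1 with the word FLAG and does not say why.

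Most of the enzymes were detected in every lane outside the ANT008+aPD-1 group. Fasn stood above background in 12 of 12 lanes, and Acaca, Scd1, Acadl, Echs1, Hadh, Acaa2 and Acat1 in 11. Cpt1a, Acat2 and Acsf3 were above background in 10 lanes, Ehhadh in 8 and Acacb, the acetyl-CoA carboxylase of the outer mitochondrial membrane, in 5. Acot12, a cytosolic hydrolase of acetyl-CoA, was above background in 0 lanes and was not tested. Between 12 and 14 of the 15 enzymes were above background in each lane of the other 3 groups. In the ANT008+aPD-1 group the numbers were 1, 13 and 9 for mice 1, 2 and 3, and the enzyme seen in mouse 1 was Fasn, at 12 counts over a background of 9.94.

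**Figure D1:**
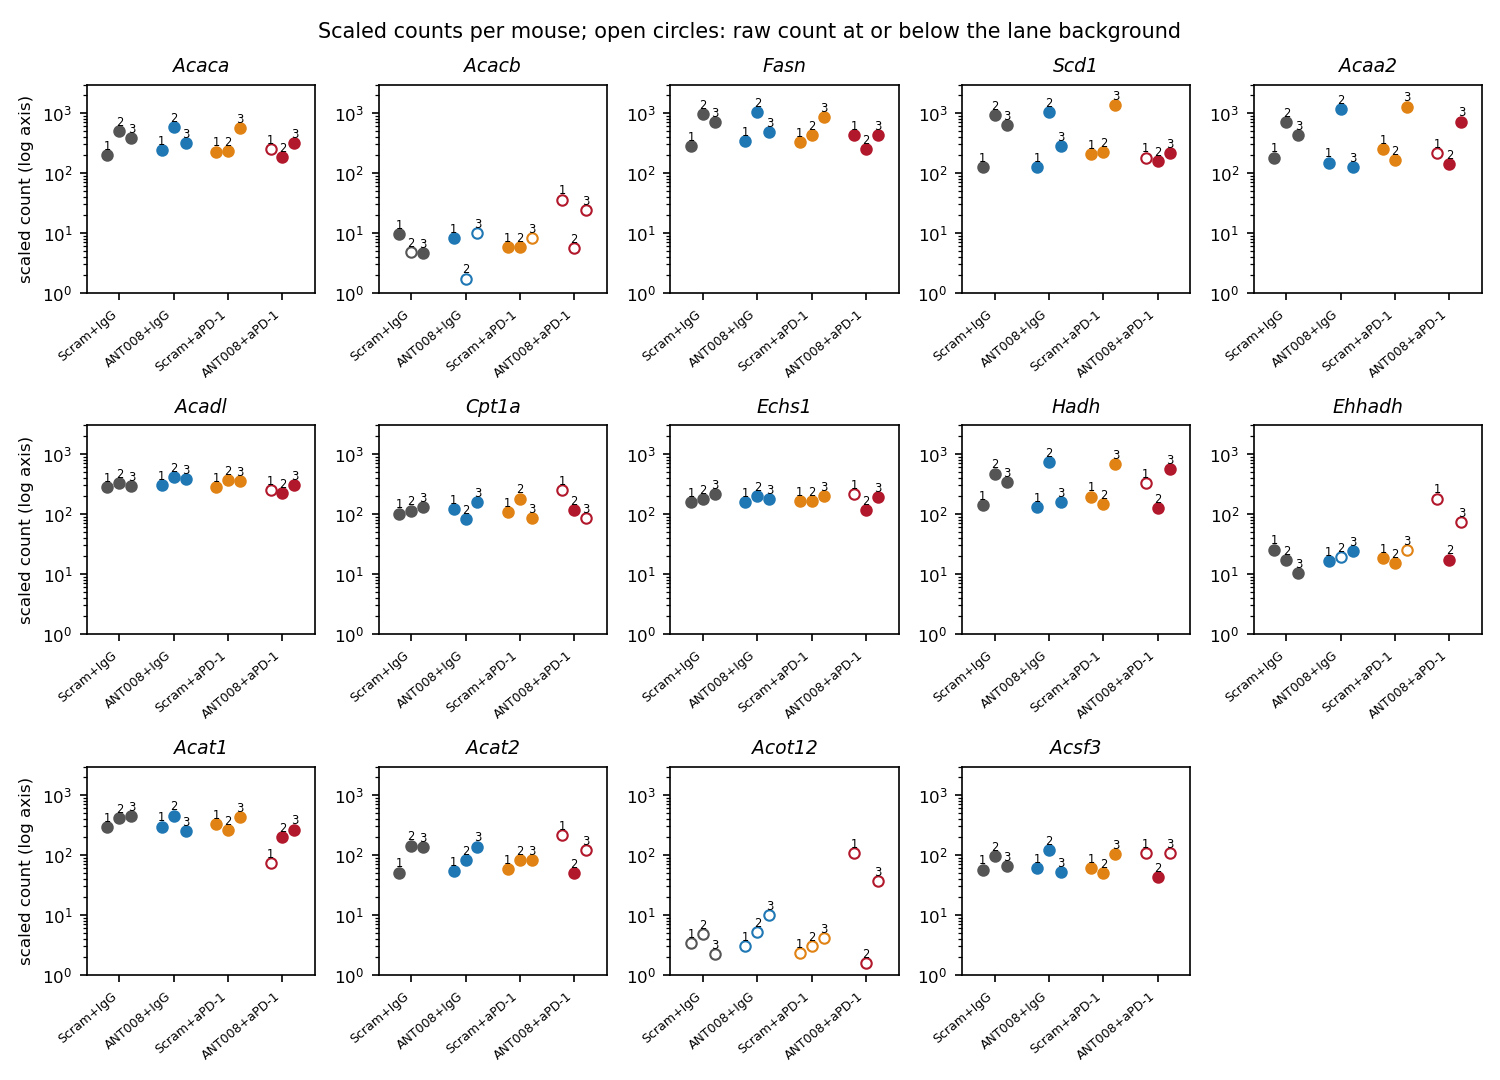
Scaled counts of 14 of the 15 enzymes (vertical log axis) in each mouse of the 4 groups (horizontal axis), with the mouse number above each point and open circles where the raw count was at or below the background of the lane. In ANT008+aPD-1 mouse 1 every circle but that of Fasn is open, and Scd1, Acaa2 and Hadh range widely between mice of the same group while Acadl and Echs1 do not.

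The mice of a group differed widely and the groups overlapped. The share of the endogenous count held by the 15 enzymes together, which needs no scaling of lanes, was 0.918%, 2.19% and 1.78% in the Scram+IgG mice. ANT008+IgG mice had 1.01%, 1.89% and 1.40%, and Scram+aPD-1 mice 0.921%, 1.25% and 1.71%. The ANT008+aPD-1 mice had 1.42%, 0.840% and 1.27%, which became 0.683%, 0.813% and 1.09% after the mean of the negative control probes was subtracted from each count. The share of mouse 1 rests on 82 counts. Mouse 1 was the lowest of its group in the other 3 groups, and in ANT008+aPD-1 as well once background was subtracted. The ANT008+aPD-1 shares overlapped those of Scram+IgG only through Scram+IgG mouse 1, whose lane is marked FLAG.

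Acaca, Acacb, Fasn and Scd1 summed to 0.274%, 0.982% and 0.744% of the endogenous count under Scram+IgG, against 0.433%, 0.281% and 0.330% under ANT008+aPD-1. The mitochondrial oxidation enzymes summed to 0.381%, 0.737% and 0.606% under Scram+IgG, against 0.606%, 0.342% and 0.621% under ANT008+aPD-1. The ratio of the synthesis sum to the mitochondrial oxidation sum was 0.719, 1.33 and 1.23 with Scram+IgG. ANT008+IgG mice had ratios of 0.837, 1.02 and 1.08, and Scram+aPD-1 mice 0.767, 0.862 and 1.08. For ANT008+aPD-1 the ratio was 0.714, 0.823 and 0.532, and the value of mouse 1, which rests on 25 synthesis counts and 35 oxidation counts, became 0.882 after background subtraction. The ANT008+aPD-1 ratios had the lowest mean of the 4 groups, 0.690 ± 0.147 (SD, n = 3) against 1.09 ± 0.328 (SD, n = 3) with Scram+IgG, and the mice overlapped. For the ratio and for the synthesis share, the overlap with Scram+IgG rests on mouse 1 of that group, whose lane is marked FLAG.

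Markers of T cells and of myeloid cells also differed between the lanes. A chosen list of T cell markers had 10 genes on the panel, which holds other T cell genes as well. All 10 were above background in 11 lanes, and 7 of them were in ANT008+aPD-1 mouse 1. These markers, among them Cd3e and Lck, summed to 2.36% of the endogenous count in Scram+IgG mouse 1 and to 0.481% and 0.446% in mice 2 and 3. In that group the mouse with the highest T cell marker share, mouse 1, was thus the one with the lowest share of the fatty acid enzymes. With ANT008+IgG the T cell markers summed to 1.61%, 0.675% and 0.873%, and mouse 1 of Scram+aPD-1 had the highest T cell marker share of its group, with 1.36% against 0.967% and 0.977%. In ANT008+aPD-1 the T cell markers held 2.29%, 1.89% and 2.16%. Mouse 1 therefore had the highest summed T cell marker share in all 4 groups, though single markers did not all follow the sum. Cd28 was lowest in ANT008+IgG mouse 1, and Zap70 was highest in Scram+aPD-1 mouse 3. Cd3d was highest in ANT008+aPD-1 mouse 3, and the sum of mouse 1 of that group includes markers below background. The labels do not say whether mice of the same number share a batch. The 4 myeloid markers (Cd14, Cd68, Cybb and Itgam) held between 0.157% and 1.00%, with 0.809%, 0.157% and 0.277% under Scram+IgG, against 1.00%, 0.905% and 0.733% under ANT008+aPD-1. The B cell marker Ms4a1 was above background in 3 lanes, and Egfr and Pdgfrb, markers of epithelial tumor cells and stroma, in 10 and 6. The part of these cells in the shares of the enzymes was not tested, and in such preparations fewer cells of a type and less RNA per cell cannot be told apart.

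**Figure D2:**
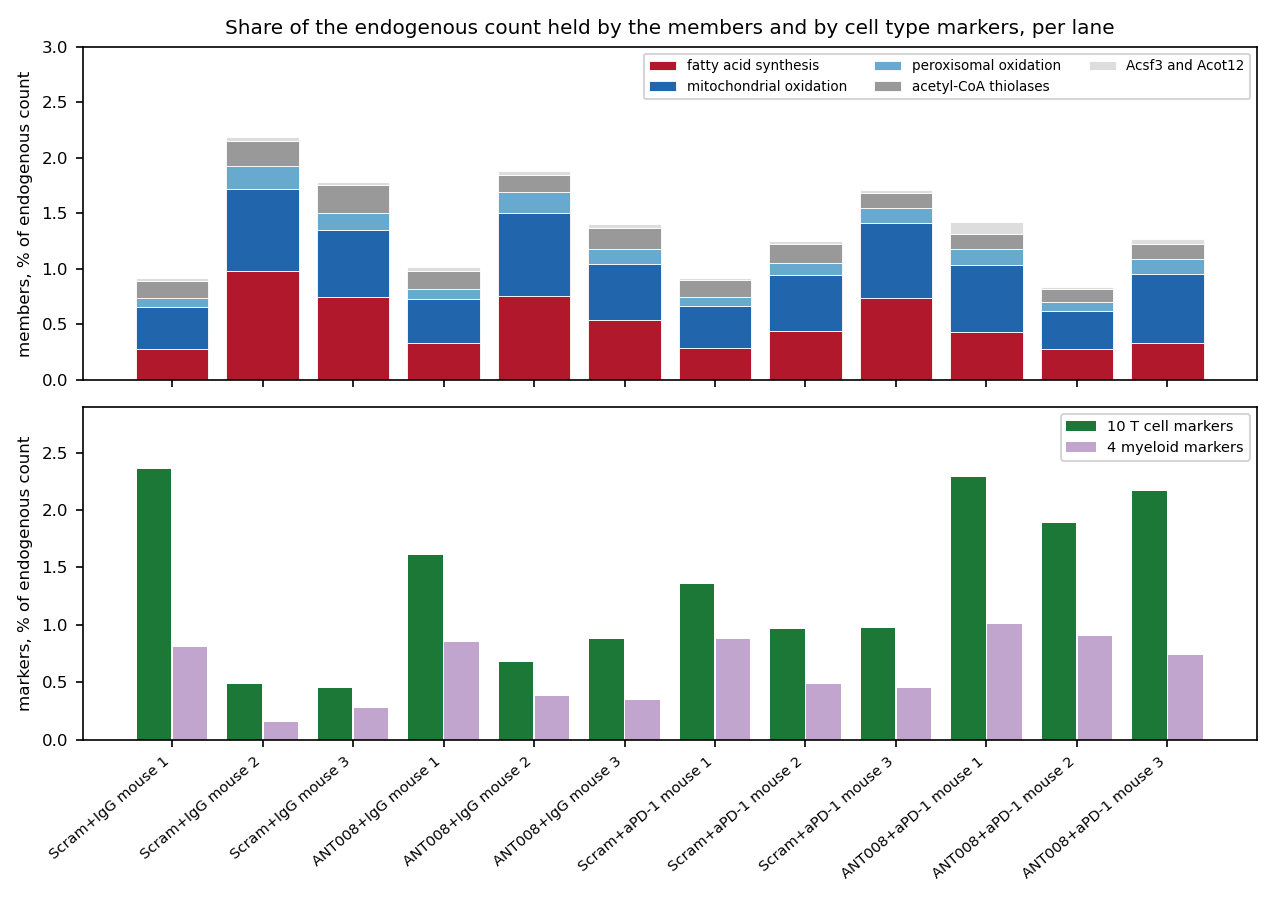
Percent of the endogenous count of each lane held by the fatty acid enzymes, stacked by role (top), and by 10 T cell markers and 4 myeloid markers (bottom). Mouse 1 of Scram+IgG has 0.918% for the enzymes and 2.36% for the T cell markers, where mouse 2 has 2.19% and 0.481%. Mouse 1 of ANT008+aPD-1 is the highest of its group for both, with 1.42% and 2.29% before background subtraction.

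The enzymes differed from each other in how steady they were between mice of a group. Scd1, the stearoyl-CoA desaturase that makes monounsaturated fatty acids, was at 125, 919 and 635 scaled counts in the Scram+IgG mice. With ANT008+IgG it was at 125, 1024 and 281, with Scram+aPD-1 at 206, 223 and 1377, and with ANT008+aPD-1 at 180, 157 and 217. The ANT008+aPD-1 values lie within the range of the Scram+IgG and of the ANT008+IgG mice, and 2 of the 3 lie below all Scram+aPD-1 mice. The low end of both ranges is mouse 1, whose lanes in Scram+IgG and ANT008+IgG are marked FLAG. Mouse 1 of the ANT008+aPD-1 group was below its lane background. Over the 10 lanes without ANT008+aPD-1 mice 1 and 3, the within-group SD of log2(scaled count + 1) was 1.53 for Scd1, at percentile 98.8 of the 640 tested genes. It was 1.49 for Acaa2, the thiolase that ends each round of mitochondrial oxidation, and 1.17 for Hadh, the dehydrogenase that precedes it. The lowest and the highest of the 10 lanes differed 11.1-fold for Scd1, 10.4-fold for Acaa2 and 5.89-fold for Hadh. By contrast the SD was 0.197 for Acadl, the long-chain acyl-CoA dehydrogenase, and 0.198 for Echs1, the short-chain enoyl-CoA hydratase, at percentiles 5.94 and 6.25. Both spanned 1.85-fold over the same lanes. The median SD was 0.668 for the 14 tested enzymes and 0.623 for all tested genes.

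**Figure D3:**
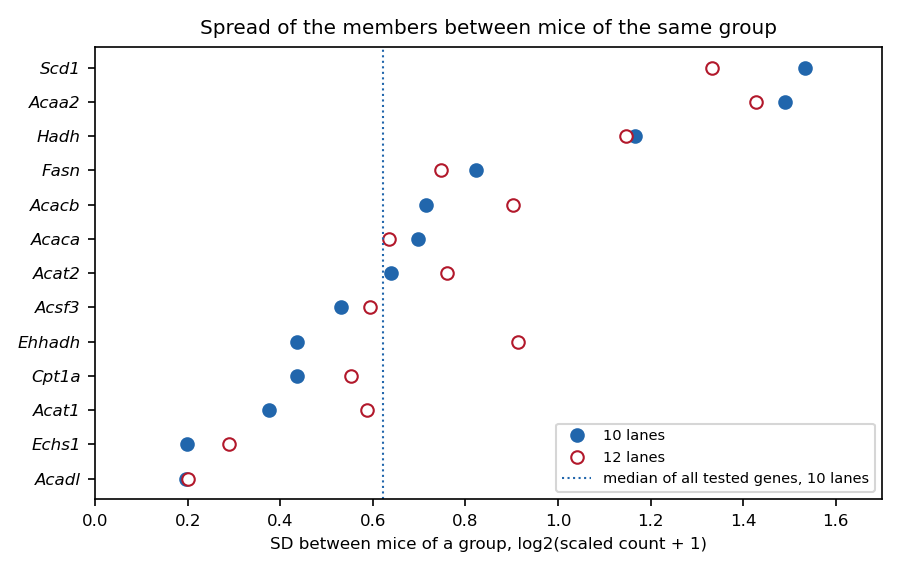
SD of log2(scaled count + 1) between mice of the same group (horizontal axis, pooled over groups) for 13 of the 14 tested enzymes, over 10 lanes (filled) and over all 12 lanes (open), with the dotted line at the median of all tested genes over 10 lanes. Scd1, Acaa2 and Hadh lie far to the right of the line, and Acadl and Echs1 far to the left of it.

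The same mice were high or low for many of the enzymes, as they were for many of all tested genes, and the ranks were not tested. Scram+IgG mouse 1 had the lowest scaled count of its group for 12 of the 14 tested enzymes, a position it held for 52.7% of all tested genes. ANT008+IgG mouse 2 was the highest of its group for 10 of 14, against 55.6% of all tested genes. Scram+aPD-1 mouse 3 was the highest for 11 of 14, against 61.4%. ANT008+aPD-1 mouse 2, the lane of that group with the most counts, was the lowest for 11 of 14, against 52.3%. The scaled background was 358 and 149 in mice 1 and 3 of that group, against 13.8 in mouse 2. Counts near background thus scale higher in mice 1 and 3, and this rank does not show that mouse 2 expressed less. The exceptions in Scram+IgG were Ehhadh and Acacb, which were lowest in mouse 3 and highest in mouse 1.

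Each single agent was examined by ANT008+IgG and Scram+aPD-1 against Scram+IgG. With ANT008+IgG, 0 of the 14 tested enzymes differed at an FDR below 0.1 in edgeR's quasi-likelihood test, as did 0% of the 640 genes. None of the enzymes had an unadjusted p below 0.05, against 0.469% of all genes. Their log2 fold changes lay between -0.28 and 0.30 with a median of 0.075, where the median of all genes was 0.11. Of the enzymes, 9 were above 0, as were 66.7% of all genes. With Scram+aPD-1, 0 of 14 enzymes differed at an FDR below 0.1, again as 0% of all genes, and none had an unadjusted p below 0.05, against 1.09% of all genes. Their log2 fold changes lay between -0.57 for Acat2 and 0.35 for Acaa2 with a median of -0.055, where that of all genes was 0.15. Above 0 were 6 of 14 enzymes and 62.7% of all genes. With ANT008+IgG the SEs of the enzymes ran from 0.28 for Acadl to 0.99 for Acaa2. With Scram+aPD-1 they ran from 0.28 to 1.00 for the same enzymes. At these SEs the comparisons cannot show that an enzyme was unchanged. The mice of the groups overlapped for all 14 tested enzymes in both comparisons. Of all genes, 2.97% were higher and 0.469% lower without overlap in the ANT008+IgG comparison, and 2.97% and 1.09% in the Scram+aPD-1 comparison.

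Cpt1a, the carnitine palmitoyltransferase named above, was at 101, 114 and 130 scaled counts with Scram+IgG. Values of 120, 80.9 and 160 were seen with ANT008+IgG, and of 107, 181 and 86.1 with Scram+aPD-1. The groups overlapped, and the log2 fold change was 0.062 (SE 0.40) with ANT008+IgG, compared with 0.14 (SE 0.40) for Scram+aPD-1. In the ANT008+aPD-1 mice its scaled counts were 252, 118 and 84.2, of which those of mice 1 and 3 came from 7 raw counts each and were below background.

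With both agents, the ANT008+aPD-1 mice were compared with the Scram+IgG mice. At an FDR below 0.1, 0 of the 14 enzymes differed, as did 0% of all genes, and the FDR of the enzymes ran from 0.356 to 0.989. At an unadjusted p below 0.05, Ehhadh was higher and Acat1 was lower, which is 1 of 14 enzymes in each direction, against 9.38% of all genes higher and 3.44% lower. The enzymes had a median log2 fold change of -0.19 against 0.12 for all genes, and 5 of 14 were above 0 against 56.7% of all genes. These shares describe the enzymes and were not tested against the other genes.

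**Figure D4:**
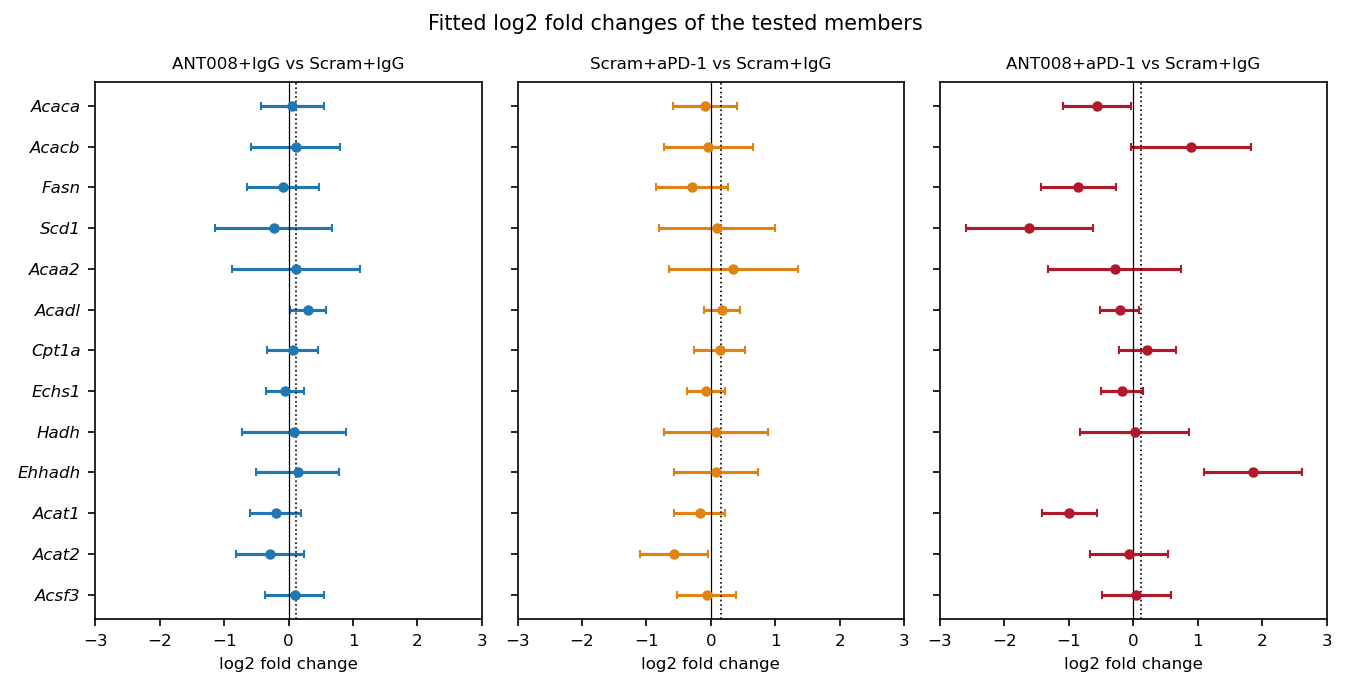
Fitted log2 fold changes (horizontal axis; bars, SE) of 13 of the 14 tested enzymes against Scram+IgG in the 3 other groups (3 mice each, all lanes in 1 edgeR fit). The dotted line is the median of all 640 tested genes. With each single agent the points lie between -0.57 and 0.35, with an SE of up to 1.00. With both agents Ehhadh is at 1.86, Acat1 at -0.99 and Scd1 at -1.61.

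Among the synthesis enzymes, Fasn, the fatty acid synthase whose target is printed above, was at 284, 975 and 707 scaled counts with Scram+IgG. With ANT008+IgG it was at 346, 1031 and 477, and with Scram+aPD-1 at 323, 425 and 861. The ANT008+aPD-1 mice had 433, 251 and 433, from 12, 318 and 36 raw counts. The ANT008+aPD-1 mice overlapped the low control, mouse 1, whose lane is marked FLAG, and lay below the other controls. The log2 fold change of Fasn was -0.85 (SE 0.58) with an FDR of 0.544 in edgeR. For Scd1 the log2 fold change was -1.61 (SE 0.98), the lowest of the 14 enzymes, with an FDR of 0.473. Acaca, the cytosolic acetyl-CoA carboxylase, had a log2 fold change of -0.56 (SE 0.52).

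Among the oxidation enzymes of mitochondria the log2 fold changes with ANT008+aPD-1 were each smaller in size than their SE. That of Cpt1a was 0.22 (SE 0.45), with an FDR of 0.929, and it turned to -0.14 without ANT008+aPD-1 mouse 1 and to -0.62 with background subtracted. Those of Acaa2, Acadl, Echs1 and Hadh lay between -0.29 and 0.024, and these enzymes too were below background in ANT008+aPD-1 mouse 1. Acadl was at 279, 325 and 290 scaled counts with Scram+IgG, 303, 413 and 387 with ANT008+IgG, 281, 374 and 352 under Scram+aPD-1 and 252, 223 and 301 with ANT008+aPD-1. The ANT008+aPD-1 mice overlapped the control and Scram+aPD-1 mice, and all 3 were below the ANT008+IgG mice. The Acadl value of ANT008+aPD-1 mouse 1 came from 7 raw counts, below the lane background of 9.94. The scaled background of that lane was 358, so it cannot place this mouse below the ANT008+IgG mice.

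Ehhadh, an enzyme of peroxisomal oxidation with hydratase and dehydrogenase activity, had the highest log2 fold change of the 14 enzymes. Its raw counts were 156, 18 and 65 with Scram+IgG, 102, 11 and 12 with ANT008+IgG, 103, 50 and 6 under Scram+aPD-1, and 5, 22 and 6 with ANT008+aPD-1. Scaled, these became 25.4, 17.1 and 10.2 with Scram+IgG, 16.2, 18.9 and 24.0 with ANT008+IgG, 18.3, 15.2 and 24.6 under Scram+aPD-1, and 180, 17.4 and 72.2 with ANT008+aPD-1. Only ANT008+aPD-1 mouse 2 was above its lane background, with 22 counts over 17.5, and it lay within the range of the controls. The values of mice 1 and 3 were lower than the scaled background of their own lanes. The log2 fold change was 1.86 (SE 0.76), with an unadjusted p of 0.0312 and an FDR of 0.356 in edgeR, and the exact permutation test of 3 mice against 3 gave p = 0.2. The log2 fold change was -0.018 without ANT008+aPD-1 mice 1 and 3, and -0.017 with the mean of the negative control probes subtracted. Without mouse 2, the lane above background, it was 2.68 with an FDR of 0.0343.

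**Figure D5:**
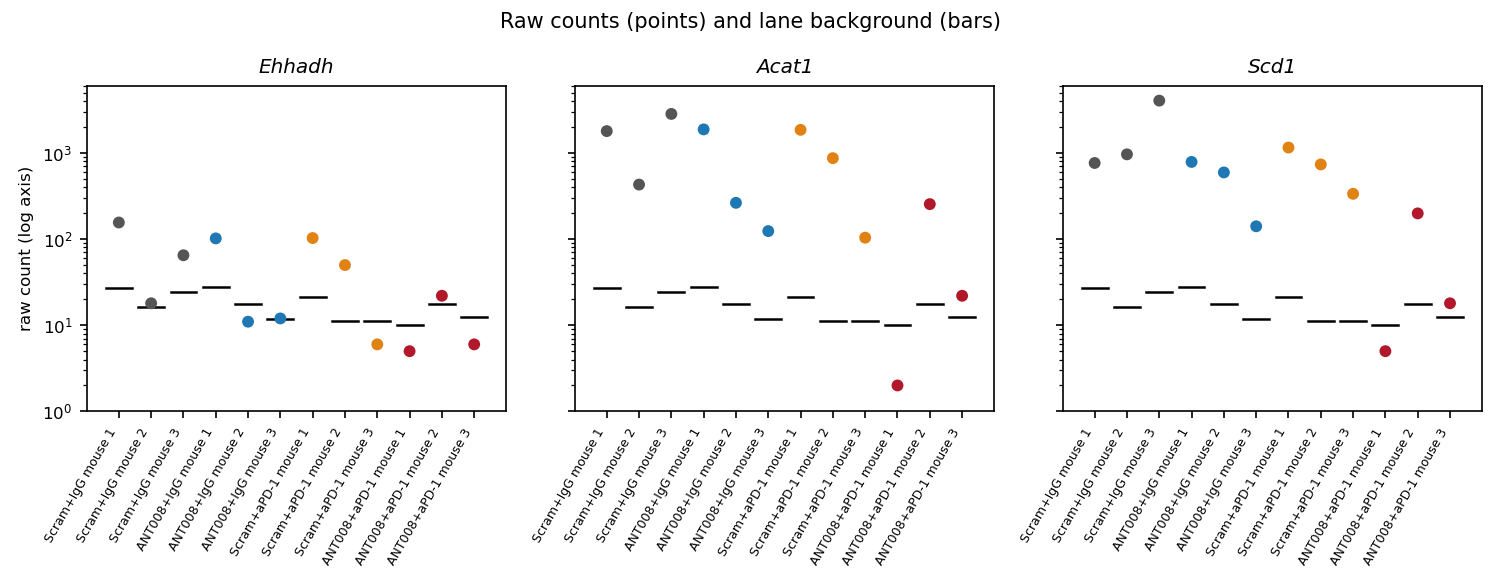
Raw counts (points, vertical log axis) of Ehhadh, Acat1 and Scd1 in each of the 12 lanes (horizontal axis), with a bar at the background of the lane. Ehhadh lies below the bar in ANT008+aPD-1 mice 1 and 3, and Acat1 and Scd1 lie below it in mouse 1.

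Acat1, the mitochondrial acetoacetyl-CoA thiolase of ketone body and isoleucine breakdown, was the enzyme whose ANT008+aPD-1 mice were all below the controls. Its raw counts were 1797, 430 and 2844 with Scram+IgG and 2, 255 and 22 with ANT008+aPD-1. The scaled counts were 292, 409 and 445 with Scram+IgG, 299, 454 and 247 with ANT008+IgG, 331, 264 and 426 under Scram+aPD-1, and 72.1, 201 and 265 with ANT008+aPD-1. The ANT008+aPD-1 mice did not overlap the Scram+IgG mice and did overlap the ANT008+IgG and Scram+aPD-1 mice. The log2 fold change against Scram+IgG was -0.99 (SE 0.42), with an unadjusted p of 0.0368 and an FDR of 0.362 in edgeR. The exact permutation test gave p = 0.1, the smallest value that 3 mice against 3 allow. It was the only enzyme of 14 that did not overlap and was lower, against 5.78% of all tested genes, and no enzyme did so and was higher, against 7.81%. The count of 2 in mouse 1 was below background, and without that mouse the log2 fold change was -0.73 with an unadjusted p of 0.0920 in edgeR. Acat2, its cytosolic relative at the entry to sterol synthesis, had a log2 fold change of -0.070 (SE 0.60). As shares of the endogenous count, the 2 thiolases summed to 0.152%, 0.226% and 0.250% with Scram+IgG and to 0.139%, 0.119% and 0.129% with ANT008+aPD-1. ANT008+IgG mice had 0.164%, 0.154% and 0.192%. Scram+aPD-1 mice had 0.148%, 0.173% and 0.133%, which overlap the ANT008+aPD-1 mice. Both thiolases were below background in ANT008+aPD-1 mouse 1, as was Acat2 in mouse 3.

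Of the remaining enzymes, Acsf3, a malonyl-CoA synthetase of mitochondria, had a log2 fold change of 0.047 (SE 0.53). It was below background in ANT008+aPD-1 mice 1 and 3. Acacb had 0.90 (SE 0.93) with 0 of the 3 ANT008+aPD-1 lanes above background.

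The addition of anti-PD-1 to ANT008, and of ANT008 to anti-PD-1, was read from the ANT008+aPD-1 mice against each single agent. Against ANT008+IgG, 0 of 14 enzymes and 0% of all genes differed at an FDR below 0.1. Ehhadh alone had an unadjusted p below 0.05 and was higher, against 5.47% of all genes higher and 2.34% lower, with a log2 fold change of 1.72 (SE 0.78) and an FDR of 0.578 in edgeR. Acadl was the only enzyme whose mice did not overlap, lower as in 7.34% of all genes (6.25% were higher without overlap). Its log2 fold change was -0.51 (SE 0.30) with an FDR of 0.578 in edgeR, and the exact permutation test gave p = 0.1. The Acadl count of ANT008+aPD-1 mouse 1 was below background, so the lack of overlap rests in part on that lane. Against Scram+aPD-1, 0 of 14 enzymes and 0% of all genes differed at an FDR below 0.1, and Ehhadh alone had an unadjusted p below 0.05, higher as in 4.69% of all genes (1.56% were lower), with a log2 fold change of 1.78 (SE 0.78) and an FDR of 0.751 in edgeR. No enzyme was free of overlap with the Scram+aPD-1 mice, against 4.53% of all genes higher and 7.34% lower. Both values of Ehhadh rest on the counts below background described above, and without ANT008+aPD-1 mice 1 and 3 they were -0.15 and -0.085. The enzymes had median log2 fold changes of -0.26 and -0.24 against the single agents, where all genes had -0.037 in each. Above 0 were 4 of 14 enzymes in the comparison with ANT008+IgG and 5 in that with Scram+aPD-1, beside 48.8% and 47.8% of all genes. The comparisons share the ANT008+aPD-1 lanes and are not independent of each other.

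The interaction of the 2 agents, the difference between the effect of ANT008 with anti-PD-1 and its effect without, was below an FDR of 0.1 for 0 of 14 enzymes and 0% of all genes. None of the enzymes had an unadjusted p below 0.05, against 1.41% of all genes (1.09% higher and 0.312% lower). Their median was -0.31 on the log2 scale against -0.17 for all genes, from -1.47 for Scd1 to 1.64 for Ehhadh, and 5 of 14 were above 0 against 40.2% of all genes.

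Genes around these enzymes were taken from a list of carriers, regulators and other enzymes of fatty acids, of which 11 were on the panel and 10 were tested. At an FDR below 0.1, 0 of the 10 differed in each of the 6 contrasts. With ANT008+aPD-1 against Scram+IgG, 3 of the 10 had an unadjusted p below 0.05 in edgeR, of which 1 was higher and 2 were lower, beside 9.38% of all genes higher and 3.44% lower. Srebf1, the transcription factor that drives genes of fatty acid synthesis, was at 244, 442 and 433 scaled counts with Scram+IgG and at 216, 205 and 181 with ANT008+aPD-1. The mice did not overlap, and the log2 fold change was -0.90 (SE 0.39) with an FDR of 0.362 in edgeR. Slc27a1, a fatty acid transport protein, was at 184, 588 and 344 with Scram+IgG and at 72.1, 173 and 84.2 with ANT008+aPD-1, without overlap, and had a log2 fold change of -1.59 (SE 0.48) with an FDR of 0.309 in edgeR. Fabp5, a fatty acid binding protein, was at 836, 424 and 643 with Scram+IgG and at 721, 1069 and 2431 with ANT008+aPD-1, with overlap, and had a log2 fold change of 1.16 (SE 0.53) with an FDR of 0.376 in edgeR. Srebf2, the relative of Srebf1 that drives sterol synthesis, was at 290, 246 and 320 with Scram+IgG and at 180, 234 and 120 with ANT008+aPD-1, also without overlap, and had a log2 fold change of -0.64 (SE 0.38) with an FDR of 0.468 in edgeR. Of all genes, 5.78% were lower without overlap in this comparison. Slc27a1 also had an unadjusted p below 0.05 against ANT008+IgG, with a log2 fold change of -1.14 (SE 0.48) and an FDR of 0.578 in edgeR. Srebf1, Srebf2 and Slc27a1 were below background in ANT008+aPD-1 mouse 1, as were Srebf2 and Slc27a1 in mouse 3.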

How the data were processed

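T cell RNA of 12 tumor-bearing mice was counted on the nCounter panel, and mice were assigned to groups from the sample titles. The authors deposited raw counts per probe and lane, with no background subtraction or scaling, and the vendor's probe list. The name of the authors' normalization and of their test per gene was not given in the sources used here. Symbols of all 15 enzymes were found in RefSeq (GRCm38.p6), used for names only.

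Endogenous genes were tested where 3 or more lanes exceeded background, which left 640. The test was edgeR's quasi-likelihood test (version 4.0.16 under R 4.3.3), in 1 fit of the 4 groups without covariates, and Benjamini-Hochberg adjustment ran over all 640. SEs were taken from the test statistic. This edgeR version bounds p-values by a Poisson test, so p can exceed what an SE implies at low counts. The test was also run on simulated counts. The changes planted there were in many genes and larger than any fitted to an enzyme in the contrasts above. It recovered most of these changes without lane background, and missed most falls in the ANT008+aPD-1 lanes when that background was added. What it recovers at the sizes fitted to the enzymes was not tested. P-values weigh the difference between groups against the spread between these mice, and depth limits the ANT008+aPD-1 group most.

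Enzymes with full values by mouse were those with an unadjusted p below 0.05 in any contrast and Fasn, Scd1 and Cpt1a. Acadl was added after its values were seen. The values of 1 enzyme and 1 marker, and 1 probe target, are not reported here, though the enzyme counts in every total. The enzymes, the pathway and marker lists and the alternatives were chosen with earlier results of these data known. Alternatives were other scalings, gene filters, background subtraction, DESeq2 1.42.0, limma 3.58.1 with and without voom, fits of only the groups compared, a replicate block and each mouse left out.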

Additional observations from a re-analysis of the deposited data

How the results depend on the processing

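Across the alternatives, scaling, background and tool moved the results as follows, and the cause was not tested beyond what each construction shows. Fold changes of Ehhadh, Acat1, Fasn, Scd1, Cpt1a and Acadl were followed in chosen contrasts with ANT008+aPD-1, and none had been below the FDR threshold. Leaving-out of single mice aside, 89 of these values kept their direction and stayed outside the threshold, 14 reversed and 2 passed it. Scaling by the positive controls, or no scaling, moved the median of all genes for ANT008+aPD-1 against Scram+IgG to -4.58 and -3.44 on the log2 scale, and with it Ehhadh to -4.11 and -2.84 and Cpt1a to -4.38 and -3.27. Ehhadh then stood at -3.30 and -1.91 in the comparison with ANT008+IgG, and at -3.12 and -2.26 in that with Scram+aPD-1. With background subtracted, Ehhadh was at -0.017 and Cpt1a at -0.62 against Scram+IgG, and in ANT008+aPD-1 mouse 1 the share of the enzymes was 0.683% and the ratio 0.882. Without ANT008+aPD-1 mice 1 and 3, Ehhadh was at -0.018 against Scram+IgG, -0.15 when compared with ANT008+IgG and -0.085 when compared with Scram+aPD-1. The voom fit with weights for samples called 3 enzymes with ANT008+aPD-1 (Acacb, Acat1 and Ehhadh) and 1 with Scram+aPD-1 (Acat2), beside 156 and 143 of all 640 genes, put Cpt1a at -0.025, and moved the median of the enzymes minus that of all genes to 0.50 in the interaction. Requiring genes above background in all lanes left Fasn alone, with a median difference of -0.93 for ANT008+aPD-1 against Scram+IgG.

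Leaving out each mouse in turn gave 0 to 1 enzymes called in the comparisons of ANT008+aPD-1 with the other 3 groups, and 0 in the rest. The enzyme was Ehhadh in each case, without ANT008+aPD-1 mouse 2, when 68, 26 and 35 of all 640 genes were called against Scram+IgG, ANT008+IgG and the Scram+aPD-1 group. Without Scram+IgG mouse 1, 0 enzymes and 84 of all genes were called for ANT008+aPD-1 against Scram+IgG. Cpt1a ran from -0.14 to 0.49 against Scram+IgG, with the value below 0 without ANT008+aPD-1 mouse 1.

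The titles give numbers that groups share, and the data did not settle that they pair the mice. The correlation of deviations between mice of the same number ran from -0.64 to 0.78, 7 of 18 pairs were over 0.1, and 3 of 12 lanes correlated best with a lane of their own number. With the replicate number as a block, 0 enzymes were called in every contrast, and Ehhadh had a log2 fold change of 1.82 with an FDR of 0.281 in edgeR against Scram+IgG. The depth of ANT008+aPD-1 mice 1 and 3 limits each statement on that group to the enzymes above background there.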
